A study of Mus musculus with 18 samples.

Results

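Of the 17 libraries of whole epididymal white adipose tissue (eWAT, the fat pad attached to the epididymis of the male mouse) that the count table holds, 6 carried epithelial RNA and 11 carried little or none, by the level of a single transcript. That transcript is Epcam, the gene of an adhesion molecule on the surface of epithelial cells and absent from fat cells. A library was counted as epithelium-containing where Epcam reached 4 CPM (counts-per-million, the count of a gene scaled to the library's total) and as clean below that, whatever its group. The 6 are let-7d 1, control 3, let-7d 5, let-7d 3, let-7e 1 and control 6. The members were thus chosen by their measured Epcam level. Since that level chose them, the epithelial and organ transcripts that go with it are described here with no test, and a test is read only for genes of the fat itself.

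All 17 libraries are from wild-type C57BL/6 males of a generation called Fm, on chow until week 6 and on a diet labelled LFD until week 15, while the age label says 24 weeks. They are described as sired from microinjected zygotes, and the groups differ by what was injected: a negative control in 5 libraries, let-7d in 6 and let-7e in 6, the treatment labels being IVF_NegativeControl, IVF_Let7d and IVF_Let7e. Both let-7d and let-7e are microRNAs, short RNAs that repress messenger RNAs. The labels describe 18 samples; control 5 is not analysed here. The epithelium-containing libraries comprise 2 control, 3 let-7d and 1 let-7e library, and the clean ones 3 control, 3 let-7d and 5 let-7e libraries. By their identifiers 2 of the 6 and 2 of the 11 belong to an early series that holds no control. The labels do not say how many sires or litters stand behind a group, how the pads were dissected, or whether each library is a different animal, so the p-values below measure only the spread between these libraries.

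The epididymal fat pad lies against the epididymis, the vas deferens and the testis. The efferent ducts between testis and epididymis are lined by absorptive cells with a brush border and by cells with motile cilia. The epididymis is a secretory tube, the vas deferens adds a thick coat of smooth muscle, and the testis makes spermatids, which pack their DNA with protamines. The surface of the pad is covered by mesothelium, a flat epithelium that is a normal part of the tissue and shares keratins with the others.

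Total counts ran from 12717365 to 28972306 per library over 16452 genes, so a count of 0 allows a level of up to 0.104 CPM in the deepest library (3 counts) and 0.236 CPM in the shallowest. Every gene in the table exceeds 0.4 CPM in at least 5 libraries. A gene confined to 1 pad is therefore not in the table, and the lists of organ genes are measured only in part: 7 of 30 genes for epididymis and vas deferens, 18 of 25 for absorptive epithelium, 24 of 37 for motile cilia, 21 of 25 for spermatids and 2 of 14 for intestine. Fat was the main tissue of each library, with Adipoq, the hormone adiponectin, between 1944 and 4527 CPM.

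Epcam (chromosome 17, bases 87635979 to 87651129 of GRCm38) stood at 115 CPM in let-7d 1, 91.0 CPM in control 3, 36.3 CPM in let-7d 5, 13.4 CPM in let-7d 3, 6.72 CPM in let-7e 1 and 5.12 CPM in control 6. The clean libraries nearest the dividing level were let-7e 4 at 1.87 CPM and let-7e 3 at 0.831 CPM, and the lowest was let-7e 2 at 0.0354 CPM. The levels of the 6 span more than an order of magnitude, so the set is not uniform.

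**Figure D1:**
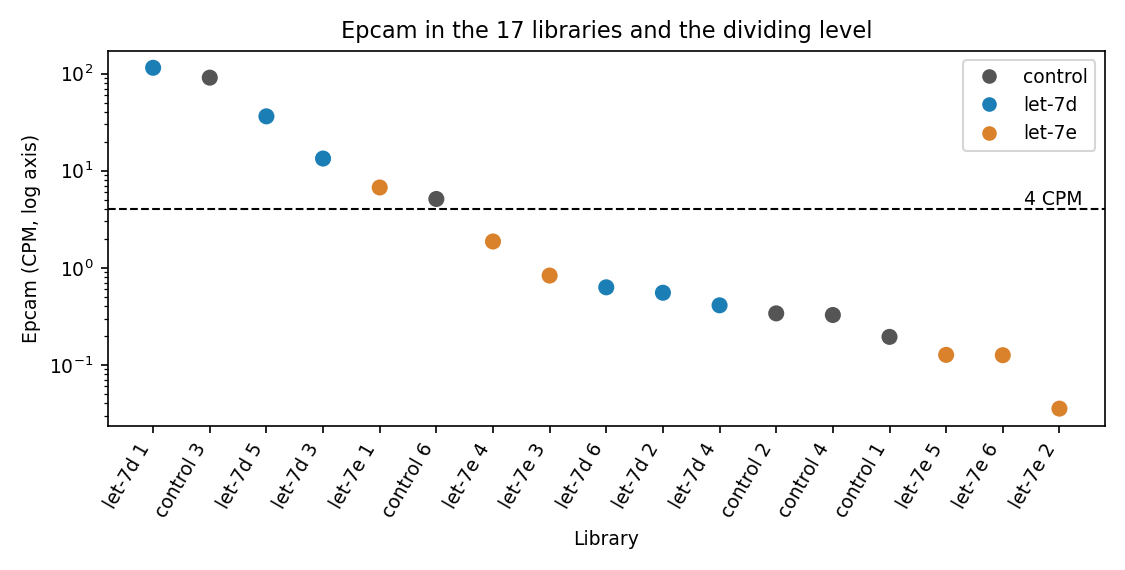
Epcam in CPM on a log axis for each of the 17 libraries, in falling order, with points in the colour of the group and the dividing level of 4 CPM as a broken line. The points run from 115 CPM in let-7d 1 to 0.0354 CPM in let-7e 2, and no library lies between 1.87 and 5.12 CPM.

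The other 16 measured genes of general epithelium told how far a single gene can name a library. Over all genes, the share above the highest clean library was 37.3% in let-7d 1, 26.2% in control 3, 18.8% in let-7d 5, 11.2% in let-7e 1 and 22.8% in control 6, and in let-7d 3 it was 1803 of 16452 genes. The counts of list members above the clean maximum given here are to be read against these shares. In let-7d 1 and in control 3, 15 of the 16 epithelial genes exceeded the highest clean library, and in let-7d 5 it was 14. The number was 9 in let-7d 3, 5 in let-7e 1 and 3 in control 6, the last no larger a share than that of all genes. Cdh1, the E-cadherin that joins epithelial cells, stood at 55.1 CPM in let-7d 1, 71.5 CPM in control 3, 15.0 CPM in let-7d 5, 3.63 CPM in let-7d 3 and 2.61 CPM in let-7e 1, all above the clean maximum of 0.388 CPM. In control 6 it stood at 0.298 CPM, inside the clean range, as did the tight junction gene Cldn7 at 0.256 CPM, the epithelial regulator Elf3 at 0.298 CPM and the keratin Krt8 at 3.71 CPM. The epithelial genes of control 6 that did exceed the clean libraries were Cldn3, another tight junction gene, at 13.7 CPM, Prom1, a protein of membrane protrusions, at 12.9 CPM, the protease inhibitor Spint1 at 1.49 CPM, and Epcam itself. Summed with Epcam, the list came to 94.1 CPM in control 6 and 83.5 CPM in let-7e 1, both below the 98.8 CPM of the clean library let-7e 4. In control 6 the data thus go against the name: most epithelial markers were at clean levels.

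Control 3 carried the transcripts of a muscular duct. Akr1b7, an enzyme that reduces aldehydes and marks the vas deferens (chromosome 6, bases 34412334 to 34423142), stood at 14772 CPM there against at most 4.01 CPM in the clean libraries. Crisp1, a secreted protein of the epididymis, stood at 3079 CPM, Spink8, a protease inhibitor, at 520 CPM, and Aqp9, a channel for water and glycerol, at 103 CPM. Of the 14 smooth muscle genes measured, 13 exceeded the highest clean library: the muscle myosin Myh11 stood at 5473 CPM, the muscle actin Acta2 at 3589 CPM, the myosin kinase Mylk at 3505 CPM and the calponin Cnn1 at 1726 CPM, where the clean maxima were 86.1, 354, 255 and 8.11 CPM. Summed over the list, smooth muscle came to 19636 CPM in control 3 and to between 644 and 1190 CPM in the other 5, which is within the clean maximum of 1270 CPM. By gene, however, 10 of the 14 exceeded the clean maximum in let-7d 5 and 7 in let-7d 1, with Myh11 at 209 and 113 CPM. Aqp2, a water channel best known from the kidney's collecting duct, stood at 90.6 CPM against a clean maximum of 1.22 CPM. The 10 genes furthest above the clean libraries also held Ptgs2, a prostaglandin synthase, at 1173 CPM, Defb42, a beta-defensin, at 254 CPM, and, less often linked with a duct, the neuronal splicing factor Rbfox3 at 304 CPM and the ankyrin Ank1 at 384 CPM.

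Let-7d 1 and let-7d 5 carried an absorptive epithelium and ciliated cells. Cdh16, a cadherin of absorptive tubules (chromosome 8, bases 104601911 to 104624396), stood at 113 CPM in let-7d 1, 35.6 CPM in let-7d 5 and 6.06 CPM in let-7e 1, against a clean maximum of 1.34 CPM. Cldn2, a claudin of leaky epithelia (chromosome X, bases 139800828 to 139811386), stood at 176, 45.8 and 9.64 CPM in the same libraries, against a clean maximum of 1.63 CPM. Lrp2, the uptake receptor megalin, stood at 189, 44.8 and 7.87 CPM, where the clean libraries reached 6.77 CPM. Hnf4a, a regulator of absorptive epithelia, stood at 60.6, 25.2 and 2.65 CPM, the last barely above the clean maximum of 2.51 CPM. Of the 18 absorptive genes measured, 15 exceeded the highest clean library in let-7d 1, 15 in let-7d 5 and 10 in let-7e 1. The number was 11 in let-7d 3 and 5 in control 6, the latter near the share of all genes. In control 3 it was 6, likewise near the share of all genes, with Cldn2 at 1.05 CPM and Hnf4a at 0.175 CPM, both inside the clean range.

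The genes of motile cilia stood high in let-7d 1, let-7d 5 and control 6 and, by gene count, in let-7e 1. Summed, they came to 630 CPM in let-7d 1, 291 CPM in let-7d 5 and 439 CPM in control 6. In let-7e 1 the sum was 110 CPM, within the clean maximum of 136 CPM. All 24 measured genes exceeded the clean maximum in let-7d 1, 22 did in let-7d 5, 22 in control 6 and 17 in let-7e 1, while in control 3 it was 10. Foxj1, the regulator that switches on motile cilia (chromosome 11, bases 116330704 to 116335399), stood at 58.2 CPM in let-7d 1, 62.2 CPM in let-7d 5 and 5.92 CPM in let-7e 1. Dnah5, a motor protein of the cilium, stood at 45.4, 11.6 and 2.87 CPM. Foxj1 thus did not keep step with Dnah5 between let-7d 1 and let-7d 5. Cuzd1, listed with the epididymis, stood at 216, 45.4 and 14.8 CPM in these libraries and at 0.351 CPM in control 3, where Akr1b7 was at its highest. Akr1b7 in turn stood at 0.0690 CPM in let-7d 1 and 0.0657 CPM in let-7d 5, levels below the 3-count limit, and at 17.3 CPM in let-7e 1, the only one of the 6 in which both Cuzd1 and Akr1b7 exceeded their clean maxima of 11.6 and 4.01 CPM.

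Promoters of genes that stood high together were read for the letters that their best known regulators bind. The 3 shown belong to genes that stood above every clean library in let-7d 1 and let-7d 5. So did Prom1, which holds the Grainyhead letters and is not shown. The cilia regulators of the RFX family bind the X-box, spelled here as GTNNCC and GNAAC with 3 free letters between, HNF4 binds CAAAGTCCA, and the Grainyhead factors of epithelia bind AACCNGTT. Each was searched on both strands in the 250 bases before to 50 after the gene start (RefSeq, GRCm38.p6). The letters of Cfap45 and Zmynd10 spell the X-box when read on the strand opposite to the one printed. Capitals mark the match:
Cfap45, X-box, chr1:172520880-172521179, plus strand: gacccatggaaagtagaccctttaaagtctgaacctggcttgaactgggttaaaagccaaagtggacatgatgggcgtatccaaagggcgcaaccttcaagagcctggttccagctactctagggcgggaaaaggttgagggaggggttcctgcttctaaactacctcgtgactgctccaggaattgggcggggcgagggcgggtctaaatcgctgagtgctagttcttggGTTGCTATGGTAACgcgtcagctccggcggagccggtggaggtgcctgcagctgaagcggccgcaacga
Zmynd10, X-box, chr9:107547054-107547353, plus strand: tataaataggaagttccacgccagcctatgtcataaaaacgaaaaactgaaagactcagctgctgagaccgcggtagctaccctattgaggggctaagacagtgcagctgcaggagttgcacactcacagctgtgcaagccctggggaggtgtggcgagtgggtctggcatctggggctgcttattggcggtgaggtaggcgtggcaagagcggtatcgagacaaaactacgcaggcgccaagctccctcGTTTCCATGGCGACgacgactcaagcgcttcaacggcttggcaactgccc
Pdzk1, HNF4, chr3:96829815-96830114, plus strand: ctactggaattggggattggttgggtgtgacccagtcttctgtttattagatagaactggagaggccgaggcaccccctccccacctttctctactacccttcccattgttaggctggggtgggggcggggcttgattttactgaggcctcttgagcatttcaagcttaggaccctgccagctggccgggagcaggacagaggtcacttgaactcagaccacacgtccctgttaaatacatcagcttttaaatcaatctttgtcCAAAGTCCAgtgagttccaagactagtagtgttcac
Of the 18 measured cilia genes with a promoter in the table, 4 held the X-box letters (Ccno, Cfap45, Hydin and Zmynd10), where 2.49% of 27025 genes do. Of 15 absorptive genes, 1 held the HNF4 letters (0.555% of all genes), and of 11 general epithelial genes, 1 held the Grainyhead letters (2.35% of all genes). The spellings were chosen after others had been tried on these promoters, so the shares are a description. Cfap45, a protein inside the cilium's microtubules, stood at 19.5 CPM in let-7d 1, 6.37 CPM in let-7d 5 and 3.05 CPM in let-7e 1, with a clean maximum of 1.39 CPM. Zmynd10, which helps assemble the cilium's motors, stood at 11.7, 5.59 and 1.19 CPM, with a clean maximum of 0.752 CPM. Both stood higher still in control 6, at 38.4 and 18.9 CPM, beside the sperm tail genes of that library. Pdzk1, a scaffold beneath the brush border, exceeded the clean maximum of 0.583 CPM in each of the 6 libraries, at 40.9 CPM in let-7d 1, 15.2 CPM in control 3, 12.4 CPM in let-7d 5, 0.994 CPM in let-7d 3, 1.59 CPM in let-7e 1 and 28.4 CPM in control 6.

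Let-7d 3 carried brush border genes without Cldn2, Cdh16 or the genes of cilia. Cdhr2 and Cdhr5, the cadherins that link microvilli, reached 25.5 and 18.4 CPM and Vil1, the villin that bundles their actin, at 23.4 CPM, where the clean maxima were 1.94, 1.17 and 2.04 CPM. Part of these stood high in let-7d 1 as well, where Cdhr2 came to 12.0 CPM, Cdhr5 to 64.7 CPM and Vil1 to 37.6 CPM. In let-7d 3, by contrast, Cldn2 at 0.130 CPM, Cdh16 at 0.0432 CPM and Foxj1 at 0.0864 CPM were at or below 3 counts. None of the 24 cilia genes exceeded the clean maximum in this library. Both measured genes of the intestine list did so: Apoa4, an apolipoprotein of absorptive enterocytes (chromosome 9, bases 46240696 to 46243459), at 46.1 CPM against 2.33 CPM, and Muc2, the mucin of goblet cells, at 6.70 CPM against 2.28 CPM. Among the 10 genes furthest above the clean libraries were Mgam, a starch-digesting enzyme, at 41.6 CPM, Pigr, the receptor that carries IgA across mucosa, at 44.7 CPM, the carboxylesterase Ces2e at 9.98 CPM, and Pls1, a plastin of microvilli, at 7.86 CPM. Of these, Pls1 was higher in let-7d 1, at 25.6 CPM, and Mgam stood at 11.2 CPM there. With 2 of the 14 genes of the intestine list measured, the organ is not named from them. Of the 8 genes listed for liver and pancreas, 4 exceeded the clean maximum, among them the apolipoprotein Apoa1 at 102 CPM against 31.9 CPM and, by little, albumin, Alb, at 201 against 186 CPM. That list's sum, most of it Cyp2e1, was 2108 CPM and within the clean range. The same library also stood high in part of the genes that belong in fat: 12 of 22 macrophage genes and 10 of 22 genes of the extracellular matrix exceeded the highest clean library. The sums of these lists, 14695 and 19222 CPM, were within the clean maxima of 19305 and 20075 CPM.

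Control 6 carried spermatids. All 21 measured spermatid genes exceeded the highest clean library, and they summed to 2560 CPM against a clean maximum of 104 CPM. Prm2, a protamine (chromosome 16, bases 10791380 to 10796134), stood at 345 CPM, Ldhc, the form of lactate dehydrogenase made in sperm, at 294 CPM, the transition protein Tnp2 at 213 CPM and Odf1, of the sperm tail's outer fibres, at 181 CPM. The cilia genes stood high here as well, 22 of 24 above the clean maximum, among them Rsph1 of the radial spokes at 72.6 CPM and Tekt1, of the tail's microtubules, at 38.2 CPM. Foxj1 stood at 11.4 CPM, while Dnah5 at 0.341 CPM and Dnah9 at 0.895 CPM were far below let-7d 1, where they stood at 45.4 and 33.5 CPM. Of 20 genes of T, B and plasma cells, 9 exceeded the clean maximum in this library, where 22.8% of all genes did. Their sum of 597 CPM was within the clean maximum of 1447 CPM.

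**Figure D2:**
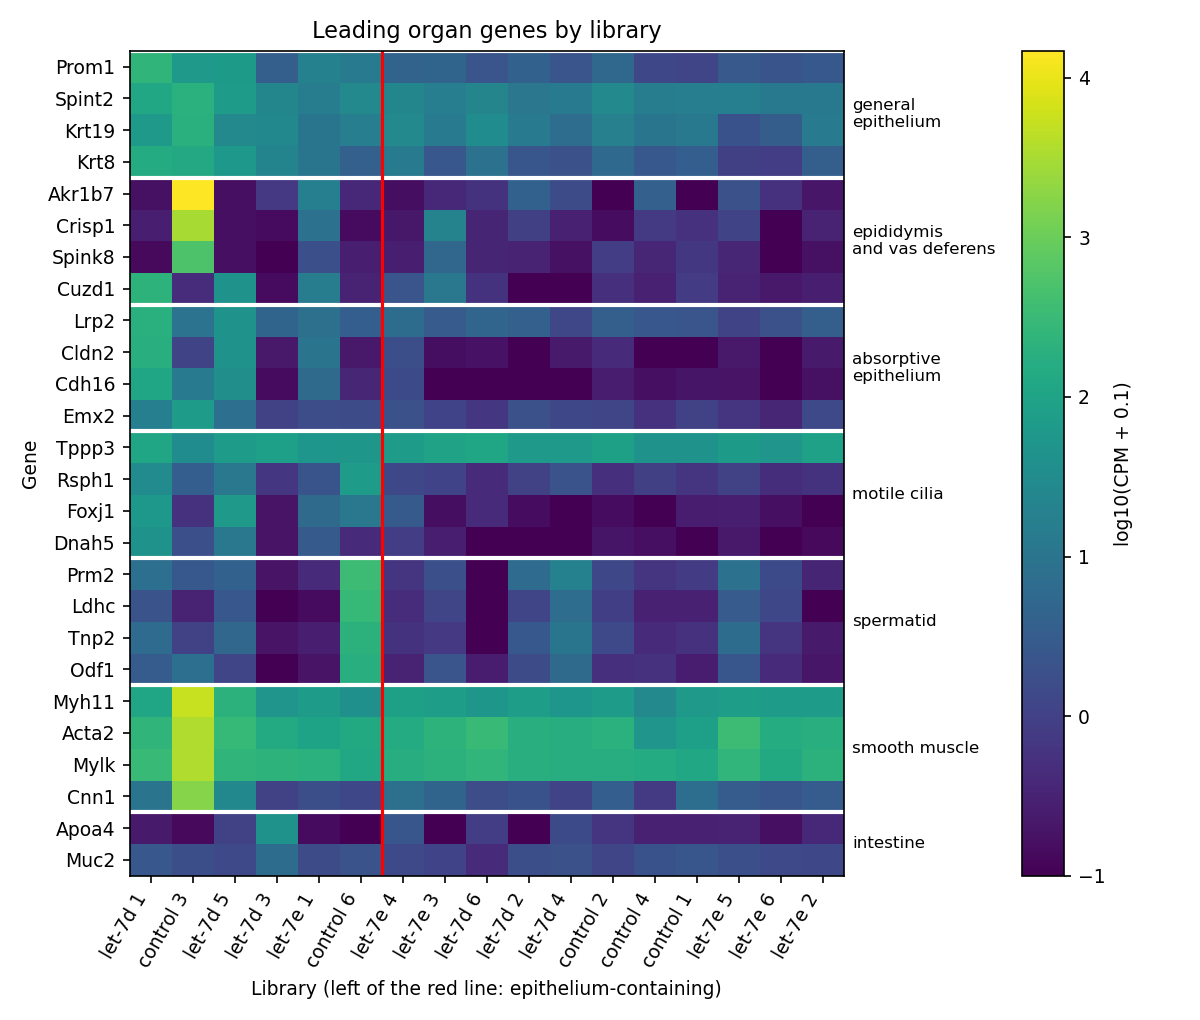
Leading genes of 7 organ lists, as log10 of CPM plus 0.1, in the 17 libraries ordered by Epcam, with the 6 epithelium-containing libraries left of the red line. Control 3 stands out for Akr1b7 (14772 CPM) and smooth muscle, let-7d 1 and let-7d 5 for Cldn2 and Foxj1, control 6 for Prm2 (345 CPM) and let-7d 3 for Apoa4 (46.1 CPM).

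The clean libraries were not free of these transcripts. Let-7e 3 held Crisp1 at 20.2 CPM, Cuzd1 at 11.6 CPM and Adam7, a sperm-surface protein made by the epididymis, at 6.49 CPM. In let-7e 4, the clean library with the most Epcam, Foxj1 stood at 2.80 CPM and Cldn2 at 1.63 CPM. Prm2 stood at 18.5 CPM in let-7d 4, 8.70 CPM in let-7e 5 and 6.27 CPM in let-7d 2. A level of Epcam under 4 CPM thus does not mark the absence of such RNA.

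The mesothelial genes went both ways in these libraries. Upk3b, a uroplakin of mesothelium, stood at 5.45 CPM in let-7d 1, 16.1 CPM in control 3, 11.3 CPM in let-7d 5, 102 CPM in let-7d 3, 17.1 CPM in let-7e 1 and 49.3 CPM in control 6, while the clean libraries ran from 12.3 to 151 CPM. The library with the most Epcam thus lay below every clean library for this gene. Msln, or mesothelin, stood at 11.6, 4.49 and 7.75 CPM in let-7d 1, control 3 and let-7d 5, against 6.04 to 62.8 CPM in the clean libraries. Of the 15 mesothelial genes, 7 lay below the lowest clean library in let-7d 1 and 4 above the highest, the latter the keratins Krt8, Krt18 and Krt19, which other epithelia share, and Rspo1, a secreted Wnt enhancer. Over all genes 6.82% lay below and 37.3% above in that library. Keratins included, the list summed to 410 CPM in let-7d 1 and 508 CPM in control 3, above the clean median of 288 CPM and within the clean range.

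How many of their most distinctive genes the 6 libraries shared varied from pair to pair. Genes at 5 CPM or more and at 10 times the highest clean library numbered 255 in let-7d 1, 188 in control 3, 74 in let-7d 5, 12 in let-7d 3, 1 in let-7e 1 and 269 in control 6. Counted in the same way against the other 10, a clean library had 0 to 6 such genes. All 74 of let-7d 5 were among the 255 of let-7d 1, where they make 29.0%. Control 3 and let-7d 1 shared 53, which is 28.2% and 20.8% of their genes. Let-7d 1 and control 6 shared 58, which is 22.7% and 21.6%, while control 3 and control 6 shared 10, which is 5.32% and 3.72%. Each such set is small beside all genes, the largest being 269 of 16452 in control 6. The 1 gene of let-7e 1 was Cfap65, of the cilium and sperm tail, at 6.90 CPM. These genes took 5.74% of the counts of control 3, 1.33% of control 6, 0.941% of let-7d 1, 0.153% of let-7d 5, 0.0269% of let-7d 3 and 0.00069% of let-7e 1.

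Epithelium-containing and clean libraries were next compared over all 16452 genes with edgeR's quasi-likelihood test, with the group and the identifier series as terms and p-values adjusted by the Benjamini-Hochberg method. At an adjusted p under 0.05, 14 genes were higher (0.0851%) and 0 were lower. At an unadjusted p under 0.05, edgeR had 1562 genes higher (9.49%) and 857 lower (5.21%). By an adjusted p under 0.05, DESeq2 called 658 higher and 86 lower and limma-voom 12 and 1. The count of lower genes turned on single libraries: without let-7e 1 edgeR called 337 lower (2.06%) and 3.83% of genes higher, and without let-7d 3 it called 49 lower and 363 higher. Epcam, whose level chose the libraries, is itself among the 14, and the others go with it, so this count describes the division and is read as no result. Cdh1, Cldn7, Pdzk1, Pls1, the amino acid transporter Slc6a20a, the ubiquitin ligase Rnf186, the desmosomal cadherin Dsg2 and the meiotic cohesin Rec8 are among them. The 6 libraries lay wholly above the 11 for 39 genes (0.237%) and wholly below for 1 (0.00608%), the predicted gene Gm40761, named after its values were seen, at 1.75 to 5.27 CPM against 5.28 to 8.67 CPM.

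The 10 genes with the smallest p among those lower, predicted genes aside, held none of the fat genes, and none of them passed. Dpp7, a lysosomal peptidase, stood at 22.1 to 28.2 CPM in the 6 and 25.7 to 37.2 CPM in the 11, with 5 of the 6 below the lowest clean library (log2 fold change -0.42, SE 0.0983, adjusted p = 0.0930 by edgeR). Gstk1, a mitochondrial and peroxisomal glutathione transferase, stood at 30.2 to 42.8 against 39.3 to 48.0 CPM (-0.37, SE 0.0898, adjusted p = 0.0962 by edgeR). The other 8 were St3gal3, Osgin2, Cpq, Aamdc, Immp2l, Ntng2, Tex261 and Ank, with adjusted p from 0.0930 to 0.116 by edgeR and log2 fold changes from -0.53 for Immp2l to -0.20 for Tex261. For each of the 10 the ranges of the 6 and the 11 overlapped.

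The fat itself was followed through 24 genes of hormones, lipid storage, synthesis and oxidation. None of the 24 passed the test (edgeR adjusted p from 0.180 to 0.830). Their log2 fold changes were below 0 for 21 of the 24, with a median of -0.32, where 49.3% of all genes were below 0 and the median of all genes was 0.00. At an unadjusted p under 0.05 there were 6 by edgeR. By an adjusted p under 0.05, DESeq2 called 1 and limma-voom 0. In bulk tissue, fewer fat cells and less RNA per fat cell cannot be told apart. With total counts in place of TMM scaling the median of all genes moves to 0.12 on the log2 scale and that of the 24 genes to -0.20.

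Adipoq, the hormone of lean fat (chromosome 16, bases 23146536 to 23158028), stood at 1944 CPM in let-7d 1, 2178 CPM in control 3, 2637 CPM in let-7d 5, 2319 CPM in let-7d 3, 2904 CPM in let-7e 1 and 3566 CPM in control 6. The clean libraries ran from 2775 to 4527 CPM with a median of 3302 CPM, so the 4 libraries with the most Epcam lay below all 11. The means were 2591 ± 585 CPM (SD, n = 6) and 3420 ± 522 CPM (SD, n = 11), and the log2 fold change was -0.43 (SE 0.141, edgeR adjusted p = 0.180). DESeq2 called it lower, with an adjusted p of 0.0372.

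Pparg, the nuclear receptor that makes a fat cell, stood at 124 CPM in control 3 and between 183 and 218 CPM in the other 5, where the clean libraries ran from 177 to 286 CPM. Control 3 alone lay below the clean range, and the log2 fold change was -0.35 (SE 0.121, edgeR adjusted p = 0.205). Car3, the carbonic anhydrase that is among the most abundant fat transcripts, stood at 13009 CPM in let-7d 1 and 12977 CPM in control 3, both below the clean minimum of 14984 CPM, and at 16252 to 22459 CPM in the other 4, the highest of them, let-7e 1, above the clean maximum of 21765 CPM (log2 fold change -0.27, SE 0.142, edgeR adjusted p = 0.376). Fabp4, the fatty acid carrier of fat cells, came to 9628 CPM in let-7d 1 and 11129 CPM in control 3, below the clean minimum of 12196 CPM, and at 12731 to 16826 CPM in the other 4. The lipoprotein lipase Lpl stood lowest in control 3, at 6942 CPM, and at 8641 to 16213 CPM in the rest, against 8498 to 17495 CPM in the clean libraries.

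Lep, the hormone leptin that tracks the size of fat cells, did not go with Epcam. It stood at 2999 CPM in let-7d 1, above the clean maximum of 2305 CPM, and at 357 CPM in control 3, where the clean minimum was 210 CPM. The log2 fold change of -0.37 (SE 0.442, edgeR adjusted p = 0.716) turned to 0.25 in the early libraries alone. Fasn, the fatty acid synthase, stood at 3210 CPM in control 6 and 5062 to 10048 CPM in the other 5, against 4374 to 28370 CPM in the clean libraries, a range wider than its log2 fold change of -0.56 (SE 0.434, edgeR adjusted p = 0.554). Elovl6, Acly, Acaca and Dgat2, enzymes that make and store fatty acids, likewise stood lowest in control 6 or, for Acaca, in let-7d 1. The genes above 0 were Cfd, the complement factor adipsin, at 0.18, Cpt1a, which admits fatty acids to mitochondria, at 0.13, and Ppargc1a, a coactivator of mitochondrial genes, at 0.38. For Ppargc1a the level of 14.7 CPM in let-7d 1 stood apart from 2.72 to 6.76 CPM in the other 5 and a clean maximum of 5.28 CPM, which let-7d 5 and let-7e 1 also exceeded.

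**Figure D3:**
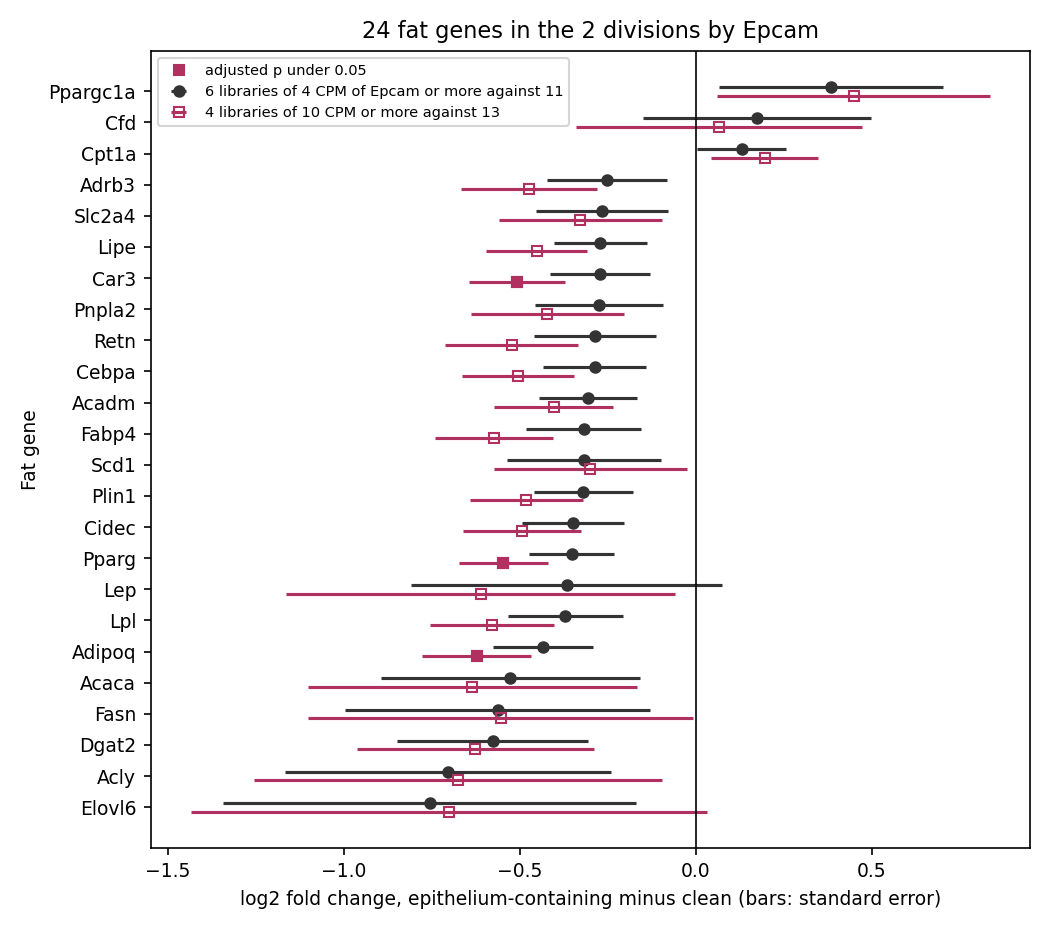
Log2 fold change of the 24 fat genes, epithelium-containing minus clean, with bars for the standard error, for the division at 4 CPM of Epcam (filled circles, 6 against 11 libraries) and at 10 CPM (squares, 4 against 13, filled where the adjusted p is under 0.05). Most points lie left of 0, and Adipoq, Pparg and Car3 pass at 10 CPM.

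Moving the division to 10 CPM of Epcam, which puts let-7e 1 and control 6 with the rest, gave 3 of the 24 genes as lower: Adipoq at -0.62 (adjusted p = 0.0293), Pparg at -0.55 (0.0202) and Car3 at -0.51 (0.0394), all by edgeR. Over all genes that division called 192 lower (1.17%) and 828 higher (5.03%). Without let-7e 1, the division at 4 CPM called 5 of the 24 lower, namely Retn, Plin1, Pparg, Dgat2 and Acadm, where 2.06% of all genes were called lower. Without control 3 and let-7d 1 together, a setting chosen after the data were seen, Adipoq stood at -0.30 and Pparg at -0.22, with adjusted p of 0.536 and 0.603 by edgeR.

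By list, the genes of fat cell identity, lipolysis and lipid droplets, lipogenesis and fatty acid oxidation lay mostly below 0, with 0 of each list past the threshold in either direction. Below 0 were 23 of 24 identity genes (median log2 fold change -0.31), 21 of 21 of lipolysis and droplets (-0.28), 19 of 21 of lipogenesis (-0.33) and 19 of 22 of fatty acid oxidation (-0.27). Summed, lipogenesis stood far highest in the clean libraries control 1 and control 4, at 138991 and 105543 CPM. The other clean libraries ran from 50931 to 70038 CPM and the 6 from 50075 to 73462 CPM. By gene, the median lipogenesis member stood above its clean median in let-7d 5, let-7d 3 and let-7e 1, at 113%, 112% and 115%, and lowest in control 6, at 61.7%. The respiratory chain had 21 of 22 below 0 at a median of -0.15, which total-count scaling brings to 16 of 22. Lists of other cells of the pad lay around 0: stroma with 6 of 15 below, extracellular matrix with 13 of 22, macrophages with 10 of 22, and T, B and plasma cells with 10 of 20. The endothelium had 13 of 17 below 0 at a median of -0.13, among them Robo4, a receptor of vessel walls, at 56.3 to 136 CPM in the 6 and 73.6 to 167 CPM in the 11.

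Some members of fat lists stood high in the epithelium-containing libraries. Fads2, a fatty acid desaturase listed with lipogenesis, stood at 843 CPM in control 3, 137 CPM in let-7d 1 and 89.7 CPM in let-7d 5, and at 22.9 to 31.4 CPM in the other 3, where the clean maximum was 63.3 CPM. Ckb, the creatine kinase listed with thermogenic genes, stood at 700 CPM in control 3, 375 CPM in let-7d 1 and 194 CPM in let-7d 5, and the clean libraries reached 89.5 CPM. Gk, glycerol kinase, stood at 140 CPM in let-7d 1 and 30.9 and 39.4 CPM in control 3 and let-7d 5, against a clean maximum of 13.1 CPM. At the 10 CPM division Fads2, Fads1, the desaturase next to it in the pathway, Ckb and Gk were called higher (edgeR adjusted p of 0.00416, 0.0418, 0.0038 and 0.00611). So was Cd9 of the stroma and macrophage lists (0.0479). Cd36 of the identity list and Etfa of the oxidation list were called lower (edgeR adjusted p of 0.0434 and 0.0430), beside Adipoq, Pparg and Car3. Over all genes that division called 5.03% higher and 1.17% lower. The 2 sets were divided by an epithelial gene. A gene that rises with Epcam would be called higher by that division alone, so these higher calls are a description. How much of these levels belongs to fat cells was not tested.

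The libraries themselves show where the fat genes stood low. Summed over the 24 genes of the fat cell identity list (a list of hormones, regulators and abundant proteins of fat cells that overlaps the 24 tested genes in part), let-7d 1 held 61463 CPM and control 3 held 59451 CPM, or 68.6% and 66.3% of the clean median of 89660 CPM. Let-7d 5 came to 89.5%, let-7d 3 to 85.6%, control 6 to 94.1% and let-7e 1 to 105%, while the clean libraries ran from 87.8% to 107%. Let-7d 1, control 3 and, narrowly, let-7d 3 lay outside that range. Of the 24 genes, 13 lay below the lowest clean library in let-7d 1 and 16 in control 3, where 6.82% and 9.06% of all genes did. In control 6, 12 of 21 lipogenesis genes and 11 of 22 of fatty acid oxidation lay below the lowest clean library (5.94% of all genes). So did 8 of 22 genes of the respiratory chain and 4 of 12 thermogenic genes. Of these lists, 1 oxidation gene lay above the highest. Fatty acid oxidation also stood low in let-7d 1 (15 of 22 below, 2 above). Lipolysis and lipid droplet genes stood low in let-7d 1 (11 of 21 below) and control 3 (13 of 21 below). Low levels were not confined to lists of fat cell genes. The endothelial list summed to 0.600 of its clean median in let-7d 1 and 0.675 in control 3. Of its 17 genes, 5 and 9 lay below the lowest clean library (6.82% and 9.06% of all genes). The macrophage list summed to 0.587 of its clean median in control 3 and 0.921 in let-7d 1.

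**Figure D4:**
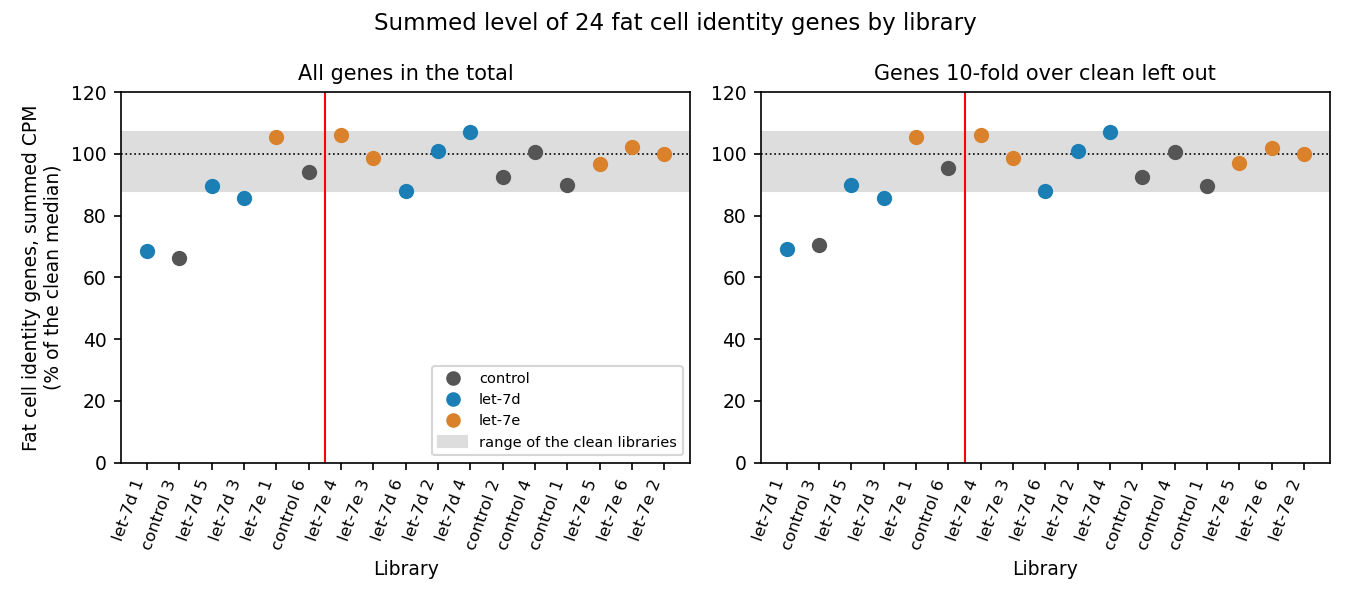
Summed CPM of the 24 fat cell identity genes in each library as a percent of the clean median, with all genes in the total (left) and without the genes at 10 times the highest clean library (right). Let-7d 1 and control 3 stand at 68.6% and 66.3% on the left and at 69.3% and 70.3% on the right, below the grey range of the clean libraries.

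The organ transcripts take up counts that would otherwise fall on fat genes, and the size of that share was computed. The 148 measured organ-list genes held, above their clean medians, 4.05% of the counts of control 3, 0.335% of let-7d 1, 0.327% of control 6, 0.305% of let-7d 5, 0.0886% of let-7d 3 and 0.0376% of let-7e 1. With these genes left out of the total, the identity genes came to 69.0% of the clean median in control 3 and 68.7% in let-7d 1, in place of 66.3% and 68.6%. With all 606 genes at 10 times the highest clean library in any of the 6 left out, they came to 70.3% and 69.3%. Leaving these transcripts out thus moved the identity genes by a few percentage points in control 3 and by less than 1 in let-7d 1. Transcripts that organ and fat have in common are not in this sum. Over all genes, those above the highest clean library exceeded the clean median by 13.2% of the counts in control 3 and 10.4% in let-7d 1, but the clean library control 1, set against the other 10, reached 14.4%.

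The uneven spread of these libraries over the groups bears on the study's own comparisons. With all 17 libraries, edgeR called 0 of 16452 genes (0%) when let-7d was set against control and 0 (0%) when let-7e was. Its unadjusted p-values under 0.05 numbered 1676 (10.2%) and 1729 (10.5%). By an adjusted p under 0.05, DESeq2 called 10 and 15, and limma-voom 0 and 0. With the 11 clean libraries edgeR called 0 of 15859 in each, with 1056 (6.66%) and 1112 (7.01%) at an unadjusted p under 0.05. Let-7e against let-7d also gave 0 genes by edgeR with either set, and 1097 (6.67%) and 1728 (10.9%) at an unadjusted p under 0.05. DESeq2 called 14 there by an adjusted p under 0.05 with all libraries. The comparisons share the control libraries, which fall from 5 to 3.

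Organ lists shifted with the choice of libraries. The values without the 6 cover only the members still tested, such as 12 of 18 absorptive and 13 of 24 cilia genes. The smooth muscle list had 13 of 14 genes below 0 for let-7d and 13 of 14 for let-7e with all libraries. The median of the latter was -2.39, and with the clean libraries it was 0.34, while that for let-7d was 0.07. The absorptive list went from 1.40 to 0.05 for let-7d, and the cilia list from -2.47 to 0.18 for let-7e. The spermatid list turned from -3.35 to 3.20 for let-7d and from -5.09 to 1.11 for let-7e. That list still differed between clean libraries, by levels such as the 18.5 CPM of Prm2 in let-7d 4.

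For the fat genes the shifts were smaller and mostly one way. Without the 6 libraries the log2 fold change was lower for 18 of 24 genes with let-7d (median shift -0.08) and for 22 of 24 with let-7e (median shift -0.23). The sign turned for 1 gene in the first, Acadm, and for 8 in the second, among them Pparg, from 0.16 (SE 0.175) to -0.05 (SE 0.126), and Plin1, a lipid droplet coat protein, from 0.22 to -0.06. Fasn went from -0.72 (SE 0.496) to -1.10 (SE 0.546) for let-7d and from -0.93 (SE 0.519) to -1.53 (SE 0.466) for let-7e, with edgeR adjusted p of 0.726 and 0.707 in the clean libraries. Elovl6, which lengthens fatty acids, went from -1.76 to -2.16 and from -2.32 to -2.97. The controls that remained include control 1 and control 4, whose lipogenesis genes summed to 138991 and 105543 CPM. Every other library lay between 50075 and 73462 CPM, among them the controls left out, control 3 at 58015 CPM and control 6 at 50075 CPM. How far the shifts of such genes rest on which controls remain was not tested. Lep stayed above 0, at 1.10 and 1.02 for let-7d and 0.66 and 0.43 for let-7e. None of the 24 passed in either set of libraries, the smallest edgeR adjusted p being 0.356 with all libraries and 0.707 with the clean ones. Between let-7e and let-7d, 21 of 24 were lower without the 6 libraries (median shift -0.20), 5 turned sign, and the smallest edgeR adjusted p in the clean libraries was 0.389.

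**Figure D5:**
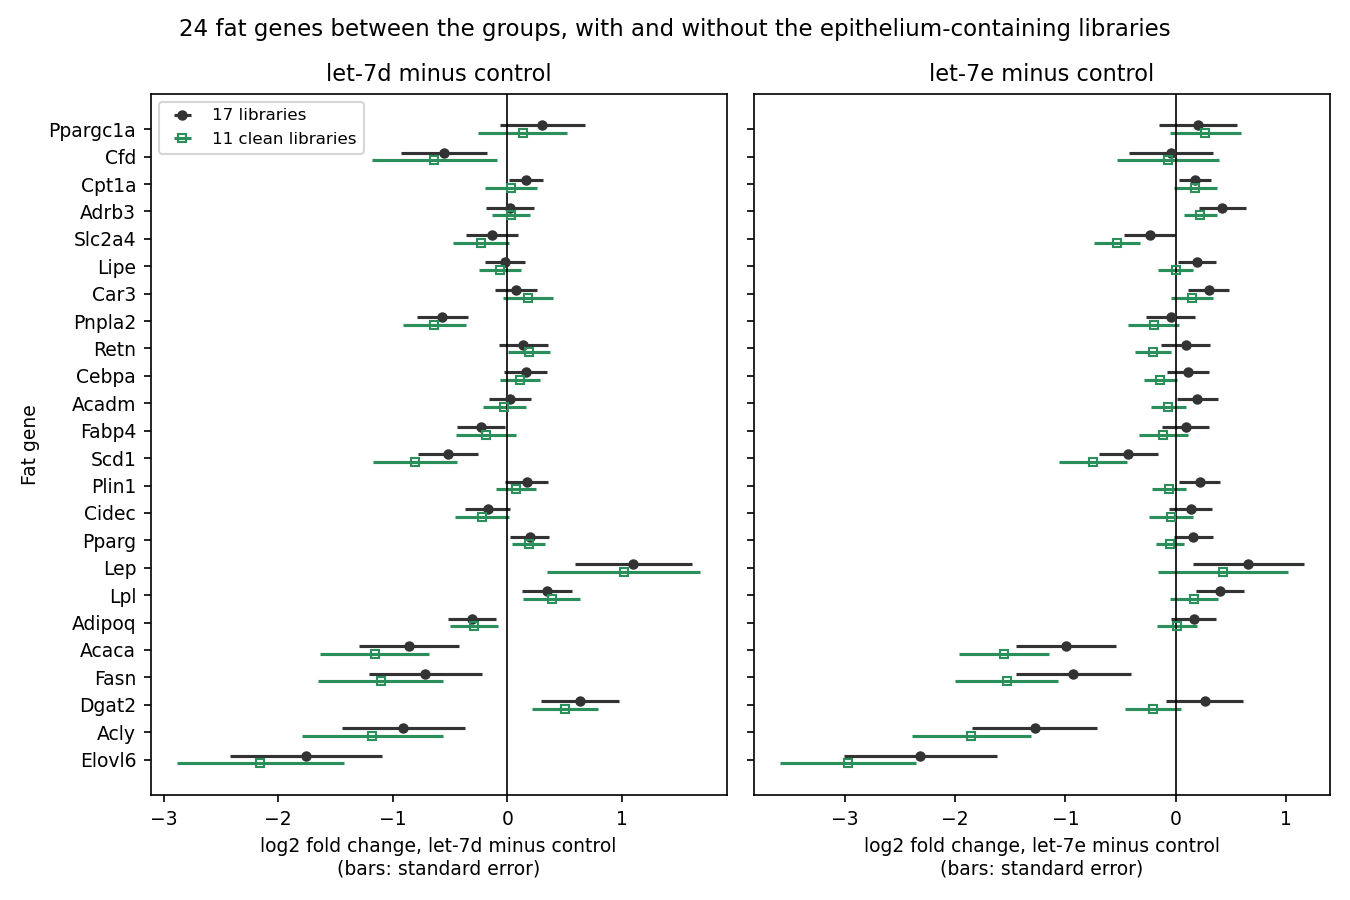
Log2 fold change of the 24 fat genes for let-7d minus control (left) and let-7e minus control (right), with bars for the standard error, over all 17 libraries (circles) and over the 11 clean ones (squares). Squares lie left of the circles for 18 of 24 genes with let-7d and 22 of 24 with let-7e, and the bars of the 2 marks overlap for all 24 genes.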

How the data were processed

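Whole-pad RNA of 17 libraries was analysed as the authors' deposited whole-number counts per gene. The submitters' processing notes name STAR and GRCm38.p6; the counter is not given in the sources used here, and by its values the table kept genes above 0.4 CPM in 5 or more libraries. Gene positions are from GENCODE M21 (16438 of 16452 identifiers matched). Total counts of 12717365 to 28972306 set the precision; intervals and floors cover counting error only. Counts were tested with edgeR 4.0.16 (quasi-likelihood, TMM scaling; R 4.3.3) with terms for group, identifier series and set, adjusted over all genes by the Benjamini-Hochberg method at 0.05. The members, gene lists and tests were chosen with earlier results of these data known. The text names the 24 fat genes, leading members of each organ list, the 10 smallest p in each direction, the 2 smallest per fat list and direction, and the 10 genes furthest above the clean libraries in each library; Gm40761, Mki67 and Top2a, among a few others, were added after their values were seen. Alternatives were other scalings, DESeq2 1.42.0, limma-voom 3.58.1, a 5 CPM filter, other terms, other Epcam levels, each series alone and each library left out. The fit was tested on simulated data. No pair of libraries agreed within sampling noise (smallest chi-square per degree of freedom 15.4). CPM is not scaled by gene length, so levels are not compared between genes.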

Additional observations from a re-analysis of the deposited data

Results flagged for a closer look

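Among the 6 epithelium-containing libraries, 50 summed levels and fat gene levels were searched for a library standing far from the other 5, and 10 were found. The mark was a gap of more than 0.625 of the range of the 6. Chance gives such a gap in about 1 of 20 where values are normally spread, which was not tested here. As Epcam chose the libraries, the search is a description and no test. Control 3 held 5 of them. Its genes of epididymis and vas deferens summed to 18478 CPM, where the other 5 held 8.91 to 365 CPM, and its smooth muscle genes to 19636 CPM, where the others held 644 to 1190 CPM. Its kidney genes summed to 91.6 CPM (others 1.32 to 5.56 CPM), of which the water channel Aqp2 was 90.6 CPM, and its urothelial genes to 23.1 CPM (others 2.89 to 4.49 CPM). Pparg, the regulator of fat cells, stood at 124 CPM in control 3 and at 183 to 218 CPM in the others.

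Let-7d 1 stood apart with 956 CPM of absorptive epithelium (others 118 to 385 CPM) and with the coactivator Ppargc1a at 14.7 CPM (others 2.72 to 6.76 CPM). Control 6 stood apart with 2560 CPM of spermatid genes (others 12.4 to 69.4 CPM) and, on the low side, with 154 CPM of nerve and glia genes (others 255 to 297 CPM), of which Pmp22, a myelin gene, took 112 CPM. Pmp22 alone of the 7 genes lay below the lowest clean library, and 2 lay above the highest. In let-7d 3 the intestine genes summed to 52.8 CPM (others 1.46 to 2.62 CPM), of which Apoa4 was 46.1 CPM.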

How the results depend on the processing

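The count of 14 genes between epithelium-containing and clean libraries was 0 with a 5 CPM filter, 0 in the late and 0 in the early libraries alone, 744 with DESeq2, 242 without the series term, 1073 with neither group nor series, 1020 with the Epcam division at 10 CPM, 204 at an adjusted p of 0.1, 29 without control 3 and let-7d 1 (chosen after seeing the data), and 0 to 962 with each library left out. It was 14 with DESeq2's size factors and with total counts; a division at 2 CPM gives the same libraries and so tests nothing. With the replicate number as a block it was 0 with the series term and 0 without. Whether the replicate numbers pair the libraries was not settled: 6 of 16 pairs of the same number had a correlation over 0.1, and the 16 ran from -0.33 to 0.50. Fat genes called numbered 1 with DESeq2, 1 with neither group nor series, 3 at 10 CPM and 0 to 5 with each library left out. Let-7d against control gave 10 genes with DESeq2, 1 with the block and no series term, and 0 to 0 with each library left out; let-7e against control gave 15 and let-7e against let-7d 14 with DESeq2. The organ genes' excess over the highest clean library in place of the median was 0.279% in let-7d 1, 3.85% in control 3, 0.103% in let-7d 5, 0.0277% in let-7d 3, 0.00909% in let-7e 1 and 0.290% in control 6. Signs turned for Lep (0.0856 with the block and series, 0.25 in the early libraries, -0.61 to 0.028 with each library left out, the latter without control 2), Cfd (-0.0080 with neither group nor series, -0.0623 to 0.30 with each library left out), Dgat2 (0.0541 in the early libraries) and Adipoq in let-7e against control (-0.0607 with limma-voom); the cause was not tested. No control is early, and the table's filter limits what can be seen of a single library.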

Other observations

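Mki67 and Top2a, genes of dividing cells, were chosen after their values were seen. Mki67, a protein of dividing nuclei, stood at 22.8 CPM in let-7d 3 and 22.7 CPM in let-7e 1, above the clean maximum of 14.7 CPM, and at 5.54 to 8.53 CPM in the other 4. Top2a, which untangles DNA before division, stood at 21.2 and 25.6 CPM in the same libraries, against a clean maximum of 13.1 CPM. Let-7d 1 and control 3, with the most Epcam, were within the clean range for both.

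Control 6, the library with spermatid genes, also held Insl3, the hormone of testicular Leydig cells, at 11.7 CPM against a clean maximum of 4.37 CPM, and the steroid enzyme Cyp17a1 at 2.43 CPM against 0.676 CPM. Of the 6 genes listed for Leydig and Sertoli cells, 3 exceeded the clean maximum there, where 22.8% of all genes did, and Star, which brings cholesterol to steroid synthesis, stood inside the clean range at 5.41 CPM. Sox9, a regulator of several epithelia and of Sertoli cells, stood instead at 75.0 CPM in let-7d 1 and 22.5 CPM in let-7d 5 and at 3.50 CPM in control 6, where the clean maximum was 6.84 CPM. In control 3 the neural adhesion gene Ncam1 stood at 53.0 CPM, against a clean maximum of 1.69 CPM.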
